A study of Mus musculus with 4 samples.

Results

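The 10 genes described here encode parts of the piRNA pathway of male germ cells: *Piwil1*, *Piwil2*, *Piwil4*, *Mael*, *Tdrd1*, *Tdrd9*, *Mov10l1*, *Asz1*, *Ddx4* and *Mybl1*. They were taken by symbol, with no use of their values, from 32285 genes counted in single cells of dissociated mouse testes, and all 10 were found. The data are 4 libraries of C57BL/6N mice at postnatal day 15, 2 per genotype, wild type or *Meioc*-null, and littermates of unlike genotype were processed together as a batch. The product of *Meioc* acts on messenger RNA in germ cells that enter meiosis, and the null mice were homozygous for its tm1.1Dpc allele. Shared by all 4 mice were a heterozygous *Hspa2* tm1Dix allele and a homozygous *ROSA26-tdTomato* reporter that still held its stop cassette. Each library came from 1 testis of 1 pup with part of the interstitium removed, so genotypes are compared over 2 mice a group.

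piRNAs are short RNAs of the germ line that are bound by PIWI proteins and direct the silencing of transposons. In fetal and perinatal male germ cells, prepachytene piRNAs are loaded into PIWIL2 (MILI) and the nuclear PIWIL4 (MIWI2). From the pachytene stage of meiosis onwards, a separate and far larger group of pachytene piRNAs is loaded into PIWIL2 and PIWIL1 (MIWI), and the transcription factor A-MYB, the product of *Mybl1*, drives transcription of their precursors and of several pathway genes. Between these points lie proteins used by both phases: the RNA helicase MOV10L1, which brings precursors to the processing site; ASZ1, which sits on the outer membrane of mitochondria; the Tudor proteins TDRD1 and TDRD9, which bind modified PIWI proteins; the DEAD-box helicase DDX4; and Maelstrom, the product of *Mael*. In what follows *Piwil1* and *Mybl1* are called the pachytene members and the other 8 the prepachytene members, after the phase in which each is first needed.

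Sequences before the transcription starts are shown for 5 members, 4 that were lower in the *Meioc*-null cells placed nearest to one group of early spermatocyte-like wild-type cells (cluster 9, described after the sequences) and *Asz1*, which was not called there. Windows of 300 bases (250 before a start to 50 after it) from RefSeq on GRCm38.p6 were found for 8 of the 10 members, 11 windows in all, and for neither *Piwil2* nor *Mybl1*. Each line gives the 250 bases before the start, written 5′ to 3′ on the strand of the gene. Capitals mark matches on either strand to CACGTG (an E-box), GCGGGA (E2F family), CCTCAG (the core of the STRA8-MEIOSIN motif) or CAACNG (MYB family).
*Piwil1* (chr5:128735996-128736245, plus strand): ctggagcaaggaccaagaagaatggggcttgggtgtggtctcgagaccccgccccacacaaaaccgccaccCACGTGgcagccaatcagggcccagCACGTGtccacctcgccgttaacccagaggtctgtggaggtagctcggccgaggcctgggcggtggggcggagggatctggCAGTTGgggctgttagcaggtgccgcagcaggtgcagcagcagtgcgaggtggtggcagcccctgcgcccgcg
*Tdrd1* (chr19:56825959-56826208, plus strand): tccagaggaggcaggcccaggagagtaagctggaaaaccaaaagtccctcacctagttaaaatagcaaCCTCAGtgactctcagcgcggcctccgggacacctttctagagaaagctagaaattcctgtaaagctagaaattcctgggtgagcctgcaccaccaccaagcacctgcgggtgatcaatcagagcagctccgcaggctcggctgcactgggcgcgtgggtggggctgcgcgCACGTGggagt
*Tdrd9* (chr12:111971309-111971558, plus strand): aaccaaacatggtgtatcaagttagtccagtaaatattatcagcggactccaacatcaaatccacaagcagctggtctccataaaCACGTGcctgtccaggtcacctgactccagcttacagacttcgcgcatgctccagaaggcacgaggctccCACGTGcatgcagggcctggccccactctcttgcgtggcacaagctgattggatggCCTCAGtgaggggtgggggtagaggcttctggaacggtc
*Mael* (chr1:166238745-166238994, minus strand): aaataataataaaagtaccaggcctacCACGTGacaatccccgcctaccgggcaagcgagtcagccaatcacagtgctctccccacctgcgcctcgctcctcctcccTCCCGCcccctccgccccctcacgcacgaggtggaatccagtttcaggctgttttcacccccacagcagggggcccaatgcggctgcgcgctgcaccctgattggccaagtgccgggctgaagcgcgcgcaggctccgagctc
*Asz1* (chr6:18109062-18109311, minus strand): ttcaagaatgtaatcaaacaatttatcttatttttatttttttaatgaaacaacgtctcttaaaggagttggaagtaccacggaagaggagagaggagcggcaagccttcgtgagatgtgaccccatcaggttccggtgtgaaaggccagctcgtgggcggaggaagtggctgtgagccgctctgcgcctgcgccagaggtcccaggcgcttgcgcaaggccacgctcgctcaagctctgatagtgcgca
CACGTG was present in the windows of 6 of the 8 members (*Piwil1*, *Mael*, *Tdrd1*, *Tdrd9*, *Mov10l1* and *Ddx4*) and absent from those of *Piwil4* and *Asz1*, that is, in 7 of their 11 windows, while 7.15% of all 32851 windows held it. The 7 windows had 55.7 to 72% G or C, against a median of 52.7% over all windows, and the shares were not matched for this. In *Piwil1* CACGTG lay at bases -179 and -154 and in *Tdrd9* at -165 and -95, counted from the start, and in *Tdrd1* at -11 and in *Ddx4* at -29. *Mov10l1*, which like *Asz1* was not called in cluster 9 in the main fit, held CACGTG at -246 and CCTCAG after its start. Its line is not among those shown. CCTCAG was present in 6 of the 11 windows, from 5 members, against 26.8% of all windows. GCGGGA was present in 2 (*Mael* and *Ddx4*) against 20.0%, and CAACNG in 2 (*Piwil1* and *Piwil4*) against 35.0%. No match to 1 motif overlapped a match to another in the windows of the members. The windows of 2 neighbouring *Tdrd1* starts held the same E-box and the same CCTCAG, so each was counted in both windows. In *Asz1* the CCTCAG match lay after the start, so its line has no capitals. The RefSeq start of *Piwil1* lay inside the longer GENCODE gene. A match describes these letters only, and binding was not measured.

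After filtering (over 1000 detected genes, under 10% mitochondrial UMIs, doublets removed), 5644 and 7505 cells of wild-type replicates 1 and 2 and 6554 and 6522 cells of the *Meioc*-null ones remained. Their median depth lay between 11702 and 14421 unique molecular identifiers (UMIs) a cell. Libraries shared 7 to 16 barcodes pairwise, at most 0.283% of the smaller library. *Meioc* itself was counted in both genotypes, at 294 and 291 counts per 1000000 UMIs (CPM) over wild-type germ cells and 343 and 283 CPM over *Meioc*-null germ cells. The 3′ tags can lie outside the deleted part, so these counts do not check the labels. Wild-type germ cells formed 10 clusters, numbered along their tree, and cells of all libraries were placed among them by their nearest wild-type cells, without the 10 genes among those used. Marker genes named cluster 1 as undifferentiated-like spermatogonia, clusters 2 to 4 as differentiating-like spermatogonia, cluster 6, the highest in *Stra8*, as preleptotene-like, clusters 8 and 9 as early spermatocyte-like and cluster 10 as pachytene-like, which rested on 4 of 7 markers. Clusters 5 and 7 were left unnamed, because the scores of their best and second class were close. Cluster 10 held 252 and 300 wild-type cells and 0 of 5078 and 0 of 4913 *Meioc*-null germ cells, so no comparison of genotypes was possible there. Many *Meioc*-null cells lay farther from their wild-type neighbours than 95% of wild-type cells of the same cluster did, from 39.1 and 29.3% of them in cluster 6 to 83.6 and 90.9% in cluster 9. Stage names for *Meioc*-null cells in clusters 6 to 9 therefore say only which wild-type cells were nearest.

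Along the wild-type clusters the prepachytene members did not share 1 course. *Piwil4* was a gene of the first cluster, 5 members fell towards cluster 7 or earlier and were highest in cluster 10, and *Mov10l1* and *Asz1* were highest in cluster 9. Levels below are CPM of UMIs summed per library and cluster. They are read along 1 gene and not between genes, and the clusters were made from the same cells, so no cluster was tested against another.

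**Figure D1:**
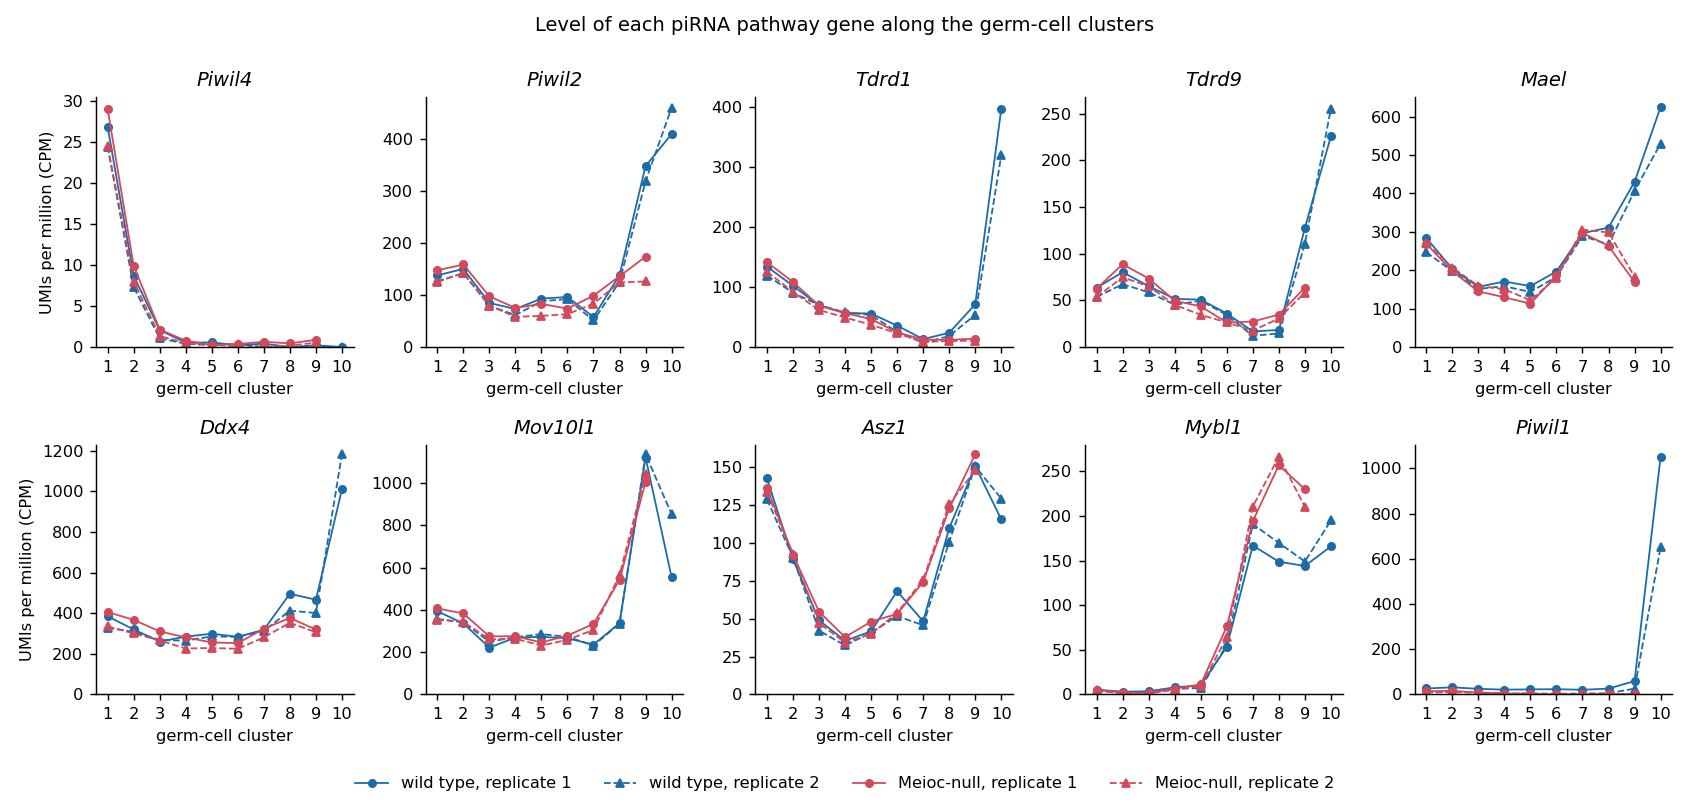
Level of each of the 10 genes (y axis, CPM on a linear scale from 0, different for each gene) along germ-cell clusters 1 to 10 (x axis), with 1 line per library, wild type in blue and *Meioc*-null in red. *Piwil4* fell to 0 UMIs in cluster 10, *Mov10l1* and *Asz1* went up into cluster 9 in all 4 libraries, and *Mael* went up from cluster 8 to 9 in the wild-type libraries alone.

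*Piwil4* (ENSMUSG00000036912, chr9:14696230-14740733, minus strand), the PIWI protein of the nucleus, had 26.9 and 24.5 CPM in wild-type cluster 1, against 29.1 and 24.5 CPM in *Meioc*-null. It was at 8.71 and 7.31 CPM in wild-type cluster 2 and at 2.06 and 1.05 CPM in cluster 3. In cluster 10 it had 0 UMIs among 12605227 and 11910274, and set against a floor of 3 UMIs per library it was at least 113-fold and 97.2-fold lower there than in cluster 1. At no more than 1.18 CPM in Sertoli-like and peritubular myoid-like cells of any library, it was far below its level in cluster 1. The libraries of both genotypes fell together.

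*Piwil2* (ENSMUSG00000033644, chr14:70372477-70429383, minus strand), the PIWI protein of both phases, reached 150 and 141 CPM in wild-type cluster 2, lay at 57.5 and 50.9 CPM in cluster 7 and stood at 409 and 459 CPM in cluster 10. *Tdrd1* (ENSMUSG00000025081, chr19:56826209-56870012, plus strand), the Tudor scaffold that binds PIWIL2, started at 134 and 119 CPM in cluster 1, lay at 13.1 and 6.89 CPM in cluster 7 and stood at 397 and 320 CPM in cluster 10. *Tdrd9* (ENSMUSG00000054003, chr12:111971559-112068854, plus strand), a Tudor protein with a helicase domain, went from 80.2 and 67.4 CPM in cluster 2 through 16.7 and 11.9 CPM in cluster 7 to 226 and 256 CPM in cluster 10. These 3 genes thus had a first level in spermatogonia, a low point in cluster 7 and a second, higher level in the last cluster, in both wild-type libraries. The highest of the mean levels of a gene was 35.9 times the lowest for *Tdrd1* and 16.8 times for *Tdrd9*.

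*Mael* (ENSMUSG00000040629, chr1:166201201-166238747, minus strand), whose protein is needed for transposon silencing, was lowest in cluster 5, at 159 and 143 CPM, and highest in cluster 10, at 625 and 530 CPM. *Ddx4* (ENSMUSG00000021758, chr13:112598333-112652475, minus strand), the mouse homologue of vasa, stayed between 261 and 385 CPM in wild-type clusters 1 to 7 and reached 1010 and 1183 CPM in cluster 10. *Mov10l1* (ENSMUSG00000015365, chr15:88982909-89055152, plus strand) lay at 236 and 232 CPM in cluster 7, then at 1122 and 1137 CPM in cluster 9 and at 555 and 853 CPM in cluster 10. *Mov10l1* was thus highest 1 cluster before most members, and so was *Asz1* (ENSMUSG00000010796, chr6:18050964-18109061, minus strand). *Asz1* went from 142 and 129 CPM in cluster 1 through 35.4 and 32.3 CPM in cluster 4 to 150 and 150 CPM in cluster 9.

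The pachytene members were apart from each other in their courses. *Mybl1* (ENSMUSG00000025912, chr1:9667415-9700209, minus strand) stood at 10.3 and 7.21 CPM in wild-type cluster 5, 53.4 and 55.7 CPM in cluster 6 and 167 and 191 CPM in cluster 7, and it stayed at 144 to 195 CPM to cluster 10. *Piwil1* (ENSMUSG00000029423, chr5:128702524-128755474, plus strand) stood at 25.9 and 5.49 CPM in cluster 8, 59.4 and 26.0 CPM in cluster 9 and 1052 and 651 CPM in cluster 10. *Mybl1* was thus near its highest level 3 clusters before *Piwil1* was. Of the 10 members, 7 had their highest wild-type mean in cluster 10, although for *Mybl1* replicate 1 was highest in cluster 7.

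With each cell thinned to 3000 UMIs, a mean of 3.23 ± 1.37 (SD over cells) and 2.75 ± 1.42 of the 10 genes were detected per cell in wild-type cluster 1, for replicates 1 and 2. The mean was 2.52 ± 1.19 and 2.42 ± 1.13 in cluster 7, and 5.83 ± 1.32 and 5.80 ± 1.31 in cluster 10, where 26 and 7 shallower cells were left out. In cluster 9 it was 4.08 ± 1.46 and 3.92 ± 1.34 in wild type, against 3.21 ± 1.14 and 3.13 ± 1.30 in *Meioc*-null. Unthinned, the median cell of cluster 9 had 7 of the genes in every library, at median depths of 16473 and 17698 UMIs in *Meioc*-null and 14068 and 13474 UMIs in wild type.

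Cells that should lack these genes served as a measure of free RNA. In peritubular myoid-like cells the 10 genes lay between 0.279 and 20.5 CPM in every library, and the highest value was that of *Piwil1* in wild-type replicate 1. In the other 3 libraries *Piwil1* was at 1.87, 0.283 and 0.651 CPM in these cells. In Sertoli-like cells, 4 members had more than 20 CPM in all 4 libraries. These were *Ddx4* (25.7 and 30.4 CPM in the wild-type libraries, 20.1 and 26.8 CPM in the *Meioc*-null ones), *Mybl1* (33.1 and 41.2 CPM in the wild-type libraries, 46.1 and 34.8 CPM in the *Meioc*-null ones), *Tdrd1* (34.6 and 27.2 CPM, then 27.8 and 21.5 CPM) and *Mov10l1* (22.0 and 30.2 CPM, then 21.4 and 28.2 CPM). *Mybl1* in Sertoli-like cells was thus above its 2.97 to 4.70 CPM in myoid-like cells and above its 0.933 to 5.42 CPM in germ-cell clusters 1 to 3. Sertoli-like cells had median depths of 2286 to 3635 UMIs, and whether the UMIs came from these cells was not tested. *Tdrd1* and *Mybl1* were the 2 members tested by genotype in Sertoli-like cells, and neither was called, against 0.348% of all genes (edgeR adjusted p = 1.00 for both).

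The next comparison asked at which stage the genotypes parted. Differences were tested with edgeR's quasi-likelihood test on the summed UMIs, as log2 fold changes of wild type over *Meioc*-null, and a gene was called at a Benjamini-Hochberg adjusted p under 0.05 over all genes tested in the cluster and an absolute value over 0.1. In bulk sums such as these, fewer cells with a transcript and fewer transcripts per cell give the same value. In clusters 1 to 4, 0 members were called of 9, 8, 8 and 7 tested, and 0%, 0.0115%, 0.0255% and 0% of all genes were called. At an unadjusted p under 0.05 the count was 1 in cluster 1 (*Piwil1*) and 0 in clusters 2 to 4. In cluster 5, 0 of 7 members were called against 1.45% of all genes, and 5 had an unadjusted p under 0.05, all higher in wild type. The share of all genes at that unadjusted limit was not counted in clusters 1 to 5, so these counts cannot be set against it. With littermate pairs as a block, *Mael*, *Tdrd9*, *Ddx4*, *Piwil2* and *Tdrd1* were called in cluster 5, with log2 fold changes of 0.29 to 0.40 and adjusted p from 0.00234 to 0.0414, while 7.91% of all genes were called. The block called 1 member in each of clusters 1 to 3 (*Piwil1*, whose background in wild-type replicate 1 is given above) and 1 in cluster 4 (*Mael*), against 0.255%, 0.357%, 1.1% and 3.59% of all genes.

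In cluster 6, preleptotene-like, 3 of 8 members tested were called, all higher in wild type, against 26.2% of all genes called and 10.6% called higher in wild type. *Piwil2* stood at 96.0 and 92.1 CPM in the wild-type libraries against 73.7 and 63.1 CPM in the *Meioc*-null ones, with no overlap. Its log2 fold change was 0.51 (SE 0.11, edgeR adjusted p = 0.00149). *Tdrd9* stood at 35.8 and 34.3 CPM against 26.3 and 26.3 CPM (log2 fold change 0.47, SE 0.14, edgeR adjusted p = 0.0156), and *Ddx4* at 284 and 284 CPM against 253 and 225 CPM (log2 fold change 0.30, SE 0.10, edgeR adjusted p = 0.0317). *Piwil2* stayed called without each of the 4 libraries in turn, with values of 0.45 to 0.57. *Tdrd9* was called only without wild-type replicate 1 and *Ddx4* in none of these 4 fits, so that 1 member (*Piwil2*) was called without either *Meioc*-null library. With pairs as a block 5 of 8 were called, *Tdrd1* and, higher in *Meioc*-null, *Mybl1* being added (log2 fold changes 0.40 and -0.31, adjusted p = 0.00864 and 0.0120), and 41% of all genes were. *Tdrd1* passed the filter (a UMI in 25% of cells of either genotype) through wild type alone. *Mybl1* turned to 0.20 without the cells far from their wild-type neighbours.

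**Figure D2:**
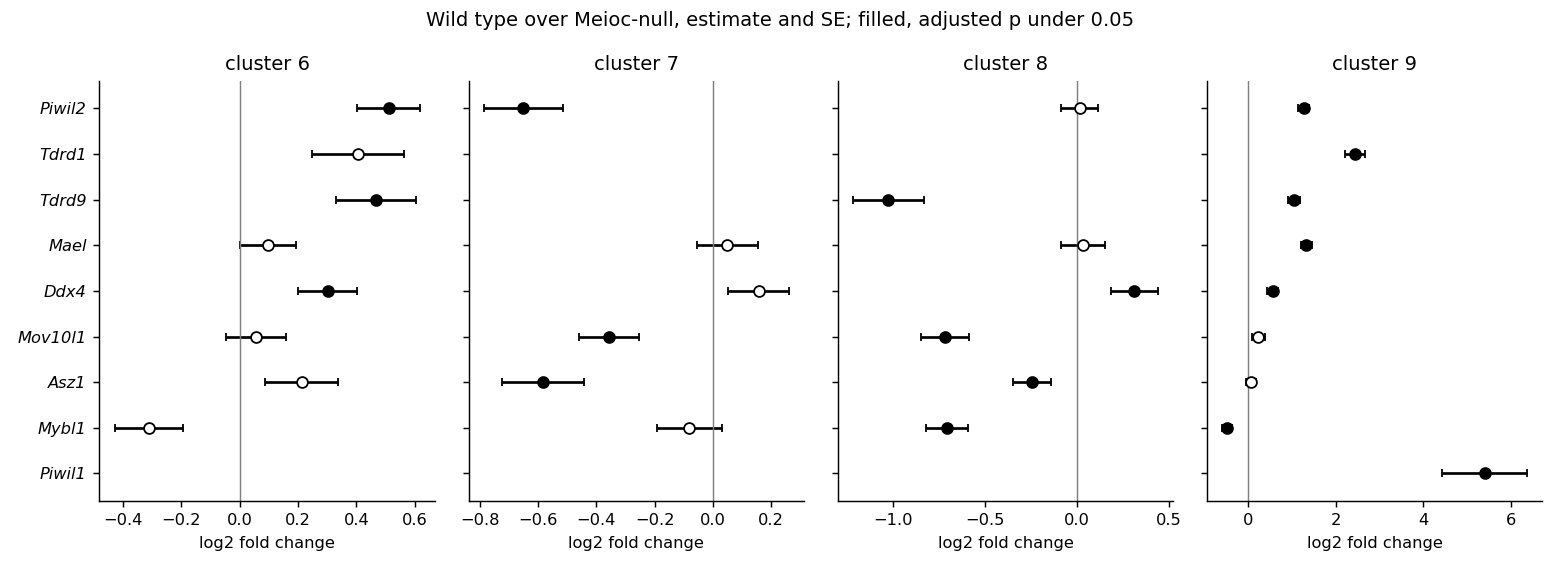
Log2 fold change of wild type over *Meioc*-null (x axis, estimate with its SE, a different range in each panel) for the members tested in clusters 6 to 9, with filled points for called genes and none where a gene was not tested. Called values lay right of 0 in cluster 6, left of 0 in cluster 7, and right of 0 in cluster 9 except that of *Mybl1*.

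Clusters 7 and 8 had the same best-matching cluster in 4 alternatives. These were no doublets removed, at least 8 clusters, 15 neighbours for the placing, and pathway and cell cycle genes allowed in the clustering. Contrasts between clusters 7 and 8 thus depended on the settings. In both clusters, most members that were called were higher in *Meioc*-null cells. In cluster 7, 3 of 6 tested were called, all in this direction, against 49.1% of all genes called and 25.6% called higher in *Meioc*-null. *Piwil2* was at 57.5 and 50.9 CPM in the wild-type libraries against 98.5 and 83.1 CPM in the *Meioc*-null ones (log2 fold change -0.65, SE 0.14, edgeR adjusted p = 0.000257), the opposite of cluster 6. *Asz1* was at 48.2 and 45.6 CPM against 74.1 and 75.7 CPM (-0.58, SE 0.14, edgeR adjusted p = 0.00121), and *Mov10l1* at 236 and 232 CPM against 334 and 306 CPM (-0.36, SE 0.10, edgeR adjusted p = 0.0053). All 3 stayed called without each library in turn.

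In cluster 8, 5 of 7 members were called, 4 of them higher in *Meioc*-null, against 55.6% of all genes called and 28.4% called in that direction. *Tdrd9* stood at 18.2 and 14.6 CPM in the wild-type libraries against 34.8 and 30.6 CPM in the *Meioc*-null ones (log2 fold change -1.02, SE 0.19, edgeR adjusted p = 9.92e-05). It passed the filter only through *Meioc*-null, where it was high (a UMI in 29.7% of cells, against 14.4% of wild-type cells), so its place among the 4 was favoured by the filter. With called genes left out of the placing, *Tdrd9* was not among the members called. *Mov10l1* was at 338 and 335 CPM against 542 and 566 CPM (-0.72, SE 0.13, edgeR adjusted p = 6.59e-05), and *Mybl1* at 149 and 170 CPM against 257 and 267 CPM (-0.71, SE 0.11, edgeR adjusted p = 1.7e-05). These 3 were called without each library in turn. *Asz1* (-0.24, edgeR adjusted p = 0.0464) was called again only without *Meioc*-null replicate 1, and *Ddx4*, higher in wild type (0.31, edgeR adjusted p = 0.0418), in none of these fits, so that 3 members were called without wild-type replicate 1, wild-type replicate 2 or *Meioc*-null replicate 2, against 47.6%, 43.2% and 53.2% of all genes. *Piwil2*, 0.01, and *Mael*, 0.03, were not called.

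In cluster 9, the last in which genotypes could be compared, the direction had turned. It held 280 and 691 wild-type cells but only 67 and 99 *Meioc*-null cells. Of 9 members tested, 7 were called, 6 higher in wild type and 1, *Mybl1*, higher in *Meioc*-null, against 62.6% of all genes called, 31.4% in the direction of wild type and 31.2% in that of *Meioc*-null. *Piwil1* (a UMI in 29.1% of wild-type and 1.81% of *Meioc*-null cells) and *Tdrd1* (46.8 and 20.5%) passed the filter only through wild type, where they were high. The count of 6 therefore includes 2 members whose direction the filter favoured, and the other 4 passed in both genotypes. *Piwil4*, with 1 UMI in both wild-type libraries together and 1 in each *Meioc*-null library, was too rare to test.

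*Tdrd1* stood at 71.2 and 53.7 CPM in wild-type cluster 9 and at 14.1 and 10.6 CPM in *Meioc*-null. The log2 fold change was 2.44 (SE 0.23, edgeR adjusted p = 4.65e-08), and every wild-type library was above every *Meioc*-null library. *Mael* stood at 430 and 407 CPM against 169 and 183 CPM (log2 fold change 1.33, SE 0.12, edgeR adjusted p = 4.26e-08), also without overlap. *Piwil2*, which had been higher in *Meioc*-null in cluster 7, stood at 347 and 318 CPM against 173 and 126 CPM (1.27, SE 0.13, edgeR adjusted p = 1.49e-07). *Tdrd9*, which had been higher in *Meioc*-null in cluster 8, stood at 128 and 111 CPM against 63.7 and 58.4 CPM (1.05, SE 0.14, edgeR adjusted p = 3.25e-06). *Ddx4* stood at 467 and 401 CPM against 320 and 307 CPM (0.56, SE 0.12, edgeR adjusted p = 0.000788), but was not called with no doublets removed. These 5 were higher in wild type in both batches and were called without each library in turn.

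*Asz1* and *Mov10l1* were not called in the same cells. *Asz1* stood at 150 and 150 CPM in the wild-type libraries against 158 and 148 CPM in the *Meioc*-null ones (log2 fold change 0.07, SE 0.11, edgeR adjusted p = 0.613), with overlap. *Mov10l1* stood at 1122 and 1137 CPM against 1006 and 1042 CPM (0.23, SE 0.15, edgeR adjusted p = 0.198). The ranges of *Mov10l1* did not overlap, and with pairs as a block it was called at the same size (0.23, adjusted p = 0.00552). Transcripts of both genes therefore went up from cluster 7 to 9 in all 4 libraries.

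Marker lists moved beside these values. In cluster 9 the summed level of 7 pachytene markers was 867 and 776 CPM in the wild-type libraries against 197 and 222 CPM in the *Meioc*-null ones (4 of 4 tested were called, all higher in wild type). That of 7 markers of differentiating spermatogonia was 229 and 215 CPM against 1102 and 988 CPM (2 of 4 tested were called, higher in *Meioc*-null). That of 4 preleptotene markers was 391 and 279 CPM against 929 and 743 CPM (3 of 3 tested were called, higher in *Meioc*-null). The 8 early spermatocyte markers, which name the cluster, lay at 5373 and 4767 CPM against 5635 and 4934 CPM and overlapped, although 4 of the 8 were called as higher in wild type and 3 as lower. In cluster 7 the preleptotene sum was 1635 and 1451 CPM in the wild-type libraries against 2821 and 2760 CPM in the *Meioc*-null ones. Of 4 tested, 2 were called, higher in *Meioc*-null. The early spermatocyte sum there was 4976 and 4790 against 5882 and 5500 CPM, with 1 of 7 tested called in each direction. The pachytene sum there was 257 and 245 against 199 and 198 CPM. Of its 3 tested markers, 1 was called as higher in wild type and 2 as higher in *Meioc*-null. In cluster 8 the pachytene sum was 576 and 485 against 322 and 344 CPM. Of its 3 tested markers, 2 were called as higher in wild type and 1 as higher in *Meioc*-null. The preleptotene sum in cluster 8 was 810 and 633 against 1771 and 1543 CPM (2 of 3 tested were called, higher in *Meioc*-null). The early spermatocyte sum was 5127 and 4690 against 6391 and 6134 CPM (of 8 tested, 3 called as higher in wild type, 2 in *Meioc*-null). Whether wild-type cells of clusters 7 to 9 were later in their course than the *Meioc*-null cells placed with them was not tested. Leaving out the cells far from their wild-type neighbours left too few *Meioc*-null cells of cluster 9 for a test.

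The step from cluster 6 to cluster 9 was then compared between genotypes within libraries, with the genotype-by-cluster term of edgeR and library as a block. Of 9 members tested, 6 differed at an adjusted p under 0.05, all with a larger step in wild type, against 61.7% of all genes and 31.5% in that direction. Without regard to direction, 6 of 9 was near the share of all genes. *Tdrd1*, 1 of the 6, passed the filter through wild type alone in both clusters, so its place was favoured by the filter. The step of *Tdrd1* was 0.98 and 1.07 log2 units in the wild-type libraries and -0.75 and -1.04 in the *Meioc*-null libraries. The difference was 2.06 (SE 0.25, edgeR adjusted p = 4.68e-11). *Mael* had steps of 1.13 and 1.15 in wild type, against -0.14 and 0.02 in *Meioc*-null, a difference of 1.23 (SE 0.09, edgeR adjusted p = 1.31e-19). For these 2 genes the wild-type libraries went up while *Meioc*-null libraries went down or stayed near 0.

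*Piwil2* and *Tdrd9* went up in all 4 libraries but by less in *Meioc*-null. The steps of *Piwil2* were 1.84 and 1.78 against 1.22 and 0.99 (difference 0.76, SE 0.10, edgeR adjusted p = 4.9e-09), and those of *Tdrd9* 1.80 and 1.66 against 1.25 and 1.12 (0.60, SE 0.16, edgeR adjusted p = 0.000742). *Ddx4* (0.25, edgeR adjusted p = 0.00783) and *Mov10l1* (0.17, edgeR adjusted p = 0.0323) had the smallest called differences. DESeq2 called 3 members of the 9 (*Mael*, *Piwil2* and *Tdrd1*), against 44.6% of all genes. *Tdrd9* was thus not called with DESeq2, nor was it with no doublets removed. *Ddx4* lost its call without wild-type replicate 1 or *Meioc*-null replicate 1, and *Mov10l1* kept it only without *Meioc*-null replicate 2. With no doublets removed the differences of *Ddx4* and *Mov10l1* turned to -0.21 and -0.02, and *Ddx4* was called in this opposite direction. *Asz1* (-0.12), *Mybl1* (-0.19) and *Piwil1* (0.48) were not called. *Mybl1* was, however, called with 15 neighbours, at least 8 clusters or no doublets removed. It was also called with called genes left out of the placing or pathway and cell cycle genes allowed in the clustering. *Mybl1* had steps of 1.41 and 1.40 in wild type, and of 1.58 and 1.70 in *Meioc*-null.

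**Figure D3:**
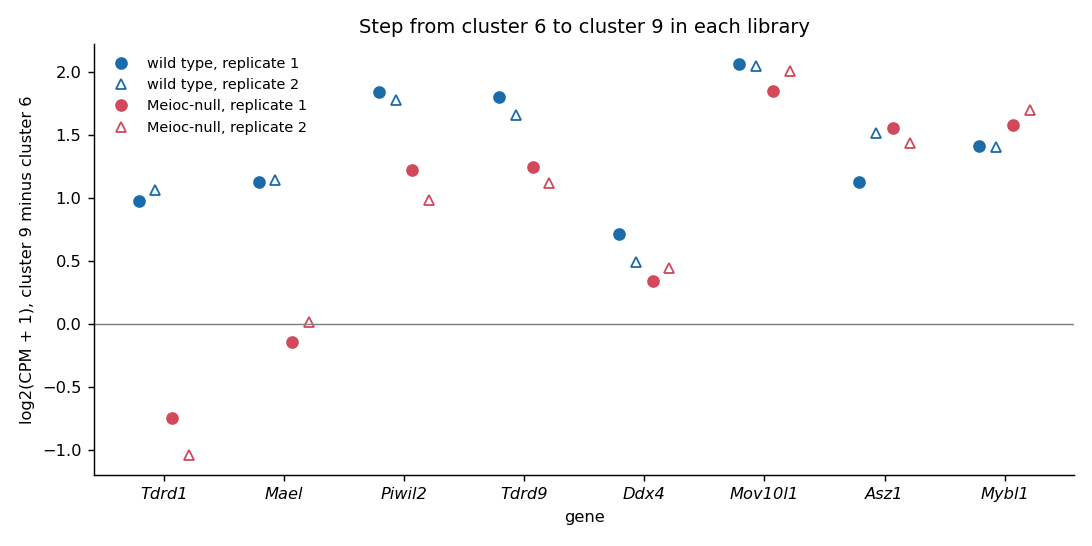
Step in log2(CPM + 1) from cluster 6 to cluster 9 (y axis) for 8 members (x axis), 1 point per library, wild type in blue and *Meioc*-null in red. Wild-type and *Meioc*-null points lay over 1.5 log2 units apart for *Tdrd1*, and they lay close together for *Mov10l1* and *Asz1*.

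With cluster 8 in place of cluster 9, the difference in step was -1.50 for *Tdrd9*, -0.78 for *Mov10l1* and -0.51 for *Piwil2* (edgeR adjusted p = 5.24e-10, 1.09e-13 and 1.93e-05), so the step was larger in *Meioc*-null, while that of *Tdrd1* was 0.56 (edgeR adjusted p = 0.0259). *Asz1* and *Mybl1* were called too, which made 6 members, against 57% of all genes. *Mael* (-0.07) and *Ddx4* (-0.01) were not called. For *Tdrd9*, *Mov10l1* and *Piwil2* the sign of the difference in step thus depended on whether cluster 8 or cluster 9 was its end. Within cluster 8 itself *Piwil2* was not called (0.01, edgeR adjusted p = 0.912). *Mov10l1* was not called within cluster 9 (0.23, edgeR adjusted p = 0.198). *Tdrd9* passed the filter in cluster 8 only through *Meioc*-null.

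*Piwil1* reached high levels in wild-type cluster 10. In cluster 10, 97.2% (95% exact interval 94.4 to 98.9%) and 97.3% (94.8 to 98.8%) of cells had a UMI, and 174 and 192 cells had 10 or more, up to 293 UMIs in a cell. Among all *Meioc*-null germ cells no cell had 10 or more, and the highest value was 5 UMIs. Thinned to 3000 UMIs, 84.5 and 73.4% of cluster 10 cells had a *Piwil1* UMI, against 4.90 and 1.10% of myoid-like cells of the same libraries, whose unthinned shares were 19.0 and 2.55%. Median depths were 45216 and 35616 UMIs in cluster 10 and 9751 and 10056 UMIs in myoid-like cells. All these intervals cover counting error only.

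In cluster 9 *Piwil1* had 291 and 274 UMIs in the wild-type libraries, against 1 and 2 in *Meioc*-null. The ratio of CPM was 67.1 (95% counting interval 11.96 to 2661) in batch 1 and 24.5 (6.73 to 204) in batch 2. The gene, which met the filter through wild type alone, was called (edgeR adjusted p = 0.00528, fitted log2 fold change 5.41, which depends on the prior count), but it was not without either *Meioc*-null library (adjusted p up to 0.296), and it was too rare to be tested without wild-type replicate 1. Wild-type replicates differed from each other as well, 59.4 against 26.0 CPM. Set against myoid-like cells of the same library, cluster 9 was 2.90 and 13.9 times as high. Sertoli-like cells of the same wild-type libraries had *Piwil1* at 18.1 and 8.23 CPM, so in replicate 2 the level of background depended on which somatic cells were taken. In replicate 1, clusters 1 to 8 lay at 20.8 to 31.6 CPM, 1.02 to 1.54 times the myoid-like level of that library, so background could make up much of these levels. The 95% counting intervals of clusters 1, 2, 3 and 8 nevertheless lay above the myoid-like 20.5 CPM. Those of clusters 1 and 2 were 23.5 to 30.0 and 28.6 to 34.9 CPM.

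*Meioc*-null libraries, which held no cell of cluster 10, had a lower background, and in them *Piwil1* was seen in spermatogonia. In cluster 1 it had 13.8 CPM (95% counting interval 11.7 to 16.2) and 9.28 CPM (7.72 to 11.1), and in cluster 2 at 15.9 and 10.2 CPM, and both clusters lay 14.3 to 56.4 times above the level in myoid-like cells of the same library, which rested on 2 and 7 UMIs. Of cluster 2 cells, 36.1 and 29.9% had a UMI, against 0.273 and 1.08% of myoid-like cells, with median depths of 29438 and 35355 UMIs in cluster 2 and 8405 and 11386 UMIs in myoid-like cells. Thinned to 3000 UMIs, the shares were 3.95 and 2.77% in cluster 2 against 0.139 and 0.156%. The level then declined to 8.60 and 7.88 CPM in cluster 3, 4.05 and 3.06 CPM in cluster 4, and 0.312 and 0.400 CPM in cluster 6. *Piwil1* thus had an early low level in *Meioc*-null spermatogonia and was at background in preleptotene-like cells. Wild-type replicate 2 had 12.9, 12.5 and 9.46 CPM in clusters 1 to 3 and 3.40 CPM in cluster 6, against 8.23 CPM in its Sertoli-like cells. Against its myoid-like cells these levels were 6.90, 6.72, 5.06 and 1.82 times as high. By this measure the early level was not particular to *Meioc*-null. In wild-type replicate 1, cluster 2 had 31.6 CPM (95% counting interval 28.6 to 34.9) against 20.5 CPM in myoid-like cells. In *Meioc*-null the Sertoli-like cells were at 0.772 and 0.474 CPM, from 3 and 2 UMIs.

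**Figure D4:**
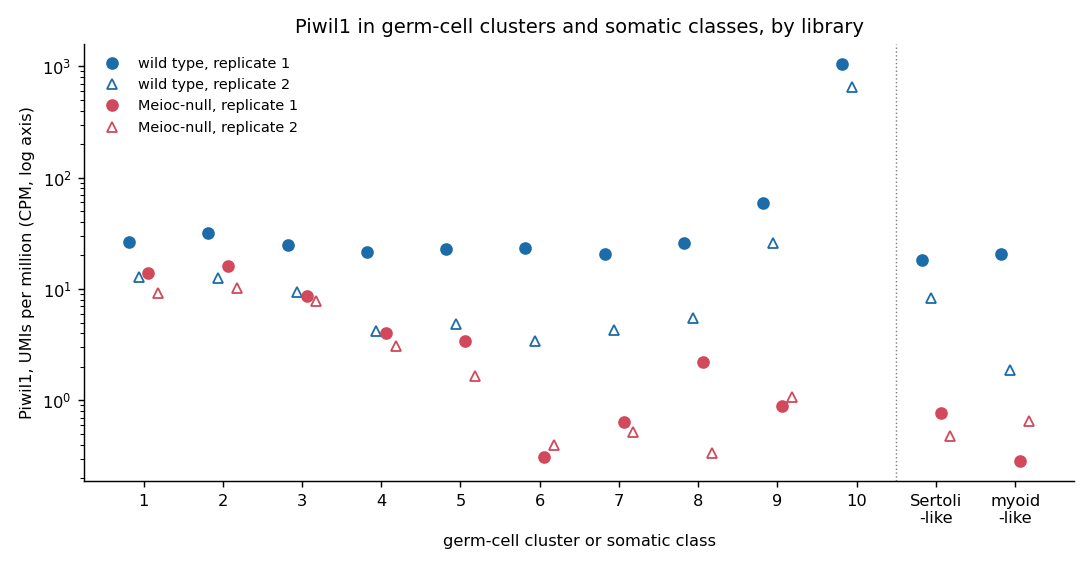
*Piwil1* CPM (y axis, logarithmic) in germ-cell clusters 1 to 10 and in Sertoli-like and myoid-like cells (x axis), 1 point per library. Wild-type cluster 10 stands at 1052 and 651 CPM. Wild-type replicate 1 lies at 1.02 to 1.54 times its myoid-like level of 20.5 CPM in clusters 1 to 8. The *Meioc*-null libraries go from 15.9 and 10.2 CPM in cluster 2 to 0.312 and 0.400 CPM in cluster 6.

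*Mybl1* had higher levels in both *Meioc*-null libraries than in either wild-type library in clusters 6 to 9, but the main fit called it only in clusters 8 and 9. With pairs as a block it was called in cluster 6 (-0.31, edgeR adjusted p = 0.0120). It was called in cluster 7 with 15 neighbours, at least 8 clusters or pathway and cell cycle genes allowed, where clusters 7 and 8 shared a match. The direction turned in cluster 6 without far cells (0.20) and in cluster 7 with called genes left out of the placing (0.10) or without a single library (up to 0.036). It was lower in both in cluster 1, at 4.51 ± 0.986 CPM (SD, n = 2) against a wild-type mean of 5.34 ± 0.117 CPM, and in cluster 4, at 5.89 ± 0.687 against 7.19 ± 1.12 CPM. In those clusters it was too rare to test. Its cluster 9 levels were 144 and 149 CPM in wild type against 230 and 210 CPM in the *Meioc*-null ones, with no overlap (log2 fold change -0.49, SE 0.11, edgeR adjusted p = 0.000882), and it was called without each library in turn. In cluster 7 the values were 167 and 191 CPM against 194 and 211 CPM (-0.08, SE 0.11, edgeR adjusted p = 0.577). Cells with a *Mybl1* UMI made up 33.7 and 38.2% of wild-type and 34.9 and 32.4% of *Meioc*-null germ cells. Of the cells with a *Mybl1* UMI in cluster 10, 98.7 and 98.6% also had *Piwil1*. Of those in *Meioc*-null cluster 9 (63 and 96 cells), 1.59 and 2.08% did, or 1 and 2 cells. In wild-type cluster 9 the shares were 54.0 and 23.6%. Among the few *Meioc*-null cells of cluster 1 with a *Mybl1* UMI (48 and 42 cells), 29.2 and 23.8% also had *Piwil1*. Of all cells, with or without *Mybl1*, 121 of 412 and 94 of 431 had *Piwil1* there. In wild-type cluster 9, 136 of 280 and 147 of 691 cells did. In these 2 groups the shares among cells with *Mybl1* were thus not far from those among all cells.

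Over 20 points (10 wild-type clusters in 2 libraries, which share library and depth) and 8436 genes, the 5 genes whose log2(CPM + 1) was most like that of *Piwil1* were *Spag6l*, *Slc2a3*, *Mroh4*, *March10* and *4930444F02Rik*, with Pearson's r of 0.97, 0.97, 0.96, 0.96 and 0.96. Those most like *Mybl1* were *Cdkl2*, *Ttbk2*, *Ift81*, *Sycp2* and *Rims2*, with r of 0.99, 0.98, 0.98, 0.98 and 0.98. Of the 8 other members that reached a mean of 10 CPM, which *Piwil4* did not, *Ddx4* was most like *Piwil1* (r = 0.86, rank 113), and *Mybl1* was least like it (r = 0.34). *Slc2a3*, a glucose transporter, was the 1 of the 5 *Piwil1*-like genes frequent enough to test in cluster 9 (log2 fold change 3.31, edgeR adjusted p = 4.84e-07). At a wild-type mean of 35.3 CPM against 3.54 and 3.72 CPM in *Meioc*-null, it was frequent enough through wild type alone, where it was high. Of the *Mybl1*-like genes, *Cdkl2* (1.89), *Sycp2*, a component of the synaptonemal complex (1.61), and *Ift81* (0.97) were higher in wild type there, while *Ttbk2* (-0.03) and *Rims2* (0.25) were not called (edgeR adjusted p = 0.888 and 0.200). The 3 that were called went the other way from *Mybl1* itself.

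A list of 24 further pathway genes gave 0 calls in clusters 1 to 4. In clusters 5 to 9, 4 of 13, 2 of 12, 7 of 12, 10 of 13 and 12 of 15 tested were called, and 4, 2, 2, 4 and 7 of these were higher in wild type. Of all genes, 1.45%, 26.2%, 49.1%, 55.6% and 62.6% were called in these clusters, so the count in cluster 6 was below that share and that in cluster 7 near it. Of the 12 called in cluster 9, *Tdrd5* (a UMI in 57.5% of wild-type and 12.05% of *Meioc*-null cells) and *Exd1* (26.9 and 13.9%) passed the filter only through wild type, and *Morc1* (8.55 and 27.1%) only through *Meioc*-null, each the genotype where it was high.

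Among those higher in wild type in cluster 9, the Tudor gene *Tdrd5* stood at 72.0 and 70.5 CPM against 7.07 and 9.02 CPM (log2 fold change 3.18, SE 0.23, edgeR adjusted p = 1.13e-09). *Stk31*, a Tudor-domain kinase, stood at 521 and 493 CPM against 186 and 138 CPM (1.76, SE 0.14, edgeR adjusted p = 4.14e-09). *Tcfl5*, a transcription factor of spermatocytes (1.69), *Tdrd7* (1.44), *Exd1* (1.29) and the Tudor gene *Rnf17* (0.55) were higher as well, and so was *Tdrd12* (0.53), which was named after its value was seen. *Tdrd5* was rare in cluster 6, at 8.17 and 3.15 CPM in the wild-type libraries against 2.28 and 1.80 CPM in the *Meioc*-null ones, and it had 249 and 230 CPM in wild-type cluster 10.

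The 5 that were higher in *Meioc*-null cells were *Tex15*, *Tex19.1*, *Morc1*, *Tdrkh* and *Gpat2*. *Tex15*, which acts in nuclear silencing of transposons and in recombination, stood at 176 and 193 CPM in the wild-type libraries against 976 and 859 CPM in the *Meioc*-null ones (log2 fold change -2.22, SE 0.14, edgeR adjusted p = 2.34e-10). In cluster 6 it had 1533 and 1751 CPM in the wild-type libraries against 1866 and 1750 CPM in the *Meioc*-null ones. *Tex19.1* stood at 89.8 and 81.7 CPM against 430 and 407 CPM (-2.20, SE 0.11, edgeR adjusted p = 1.51e-11), up from 78.6 and 66.3 CPM in *Meioc*-null cluster 6. Values for *Morc1*, a nuclear silencing gene, *Tdrkh*, a mitochondrial Tudor gene that binds PIWI proteins, and *Gpat2*, another mitochondrial factor, were -1.66, -0.74 and -0.59. The 3 tested genes that were not called were *Btbd18* (0.22), *Gtsf1* (0.05) and *Fkbp6* (-0.14), named after their values were seen.

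**Figure D5:**
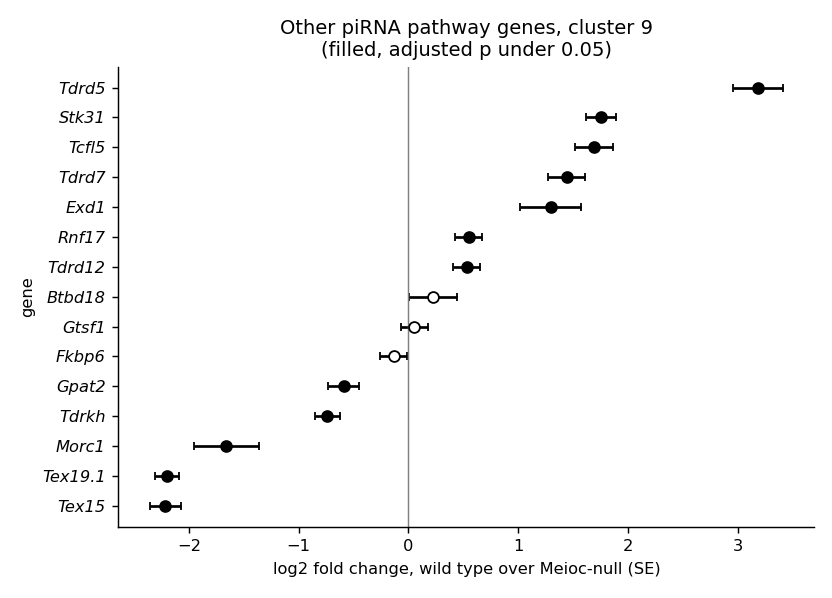
Log2 fold change of wild type over *Meioc*-null in cluster 9 (x axis, with SE) for the 15 further pathway genes that could be tested (y axis), with filled points for called genes. 7 called genes lie right of 0, led by *Tdrd5* at 3.18, and 5 lie left of 0, led by *Tex15* at -2.22.

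Summed over all germ cells without staging, 5 of 9 members were called, all higher in wild type, against 18.2% of all genes called and 11.2% called in that direction. They were *Tdrd1* (0.81), *Piwil2* (0.72), *Tdrd9* (0.71), *Ddx4* (0.56) and *Mael* (0.49). With pairs as a block 8 were called, against 38.7% of all genes, and without *Meioc*-null replicate 1 only 3 were (*Tdrd1*, *Piwil2* and *Tdrd9*), against 6.33% of all genes. *Ddx4* was called in 1 of the 4 fits that left out a library. *Piwil1* stood at 173 and 78.3 CPM in the wild-type libraries against 6.63 and 5.16 CPM in the *Meioc*-null ones (edgeR adjusted p = 0.0536, with the block 1.06e-89). *Mybl1*, called as higher in *Meioc*-null in clusters 8 and 9, differed the other way here by 0.34 (log2, edgeR adjusted p = 0.0649, with the block 0.00276). *Tdrd9* and *Piwil2*, lower in wild type in clusters 8 and 7, were higher in this sum, which includes cluster 10 in wild type only. The unstaged values thus combine which cells were present with the levels within them, and these cannot be told apart in the sum.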

How the data were processed

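UMI counts per gene and barcode were deposited as raw matrices, 1 for each of 4 libraries. The authors made these counts from 10x 3′ v3.1 libraries with Cell Ranger 4.0.0 on the mm10 build, and the deposited values were not normalised. The library depth was 158291903 to 190455307 UMIs, and intervals cover counting error only.

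Barcodes with over 1000 detected genes and under 10% mitochondrial UMIs were kept. The highest scrublet scores, 0.8% per 1000 barcodes, were removed as doublets, since the tool's own threshold marked 1.77 to 4.54%. In wild-type germ cells, 2000 variable genes without pathway or cell cycle genes were clustered (scanpy 1.11.5, leidenalg 0.10.2), and all cells took the cluster of their 30 nearest wild-type cells. A cluster stayed unnamed where its second marker score was over 0.8 of its best. This rule was set after the clusters were seen.

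UMIs were summed per library and cluster and tested with edgeR 4.0.16 (quasi-likelihood, TMM, genotype only, Benjamini-Hochberg) where every library had 50 cells and for genes with a UMI in 25% of cells of either genotype. DESeq2 1.42.0 was an alternative. Each replicate number is a littermate pair and batch per the labels, and deviations of same-numbered libraries from their group means correlated at 0.257 to 0.668 over clusters 1 to 9, so a block by pair was also fitted. The scripts were tested on simulated counts. An exact permutation test of 2 against 2 cannot go below p = 0.333. The members, lists and tests were chosen with earlier results of these data known. All 10 members are named. Of the 24 further pathway genes, those called in cluster 9 are named, at most 6 in each direction, and for *Piwil1* and *Mybl1* the 5 genes of most similar course with a mean of at least 10 CPM. Beyond this rule, *Tdrd12*, *Btbd18*, *Gtsf1* and *Fkbp6* were named after their values were seen.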

Additional observations from a re-analysis of the deposited data

Results flagged for a closer look

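The step from cluster 6 to cluster 9 differed between genotypes for 6 members by the test of the difference itself (edgeR, genotype by cluster, library as a block, adjusted p under 0.05 over all genes). The difference, wild type minus *Meioc*-null, was 2.06 log2 units for *Tdrd1*, 1.23 for *Mael*, 0.76 for *Piwil2*, 0.60 for *Tdrd9*, 0.25 for *Ddx4* and 0.17 for *Mov10l1*. *Tdrd1* passed the filter through wild type alone in both clusters, so its direction was favoured by the filter. Of all genes tested, 61.7% passed the same test, and 6 of the 9 members tested was near that share. With DESeq2 3 members were called, against 44.6% of all genes. In *Meioc*-null, cluster 9 held 67 and 99 cells, of which 83.6 and 90.9% lay beyond the distance that held 95% of wild-type cells, and the part of this in the differences was not tested.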

How the results depend on the processing

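Over 665 alternative values for single members in clusters 6 to 9, over all germ cells and in the step from cluster 6 to 9, 560 kept direction and call, 44 lost the call, 36 gained it and 25 changed sign, 18 of these uncalled in both fits. With pairs as a block the members called were 1 in each of clusters 1 to 4, 5 in cluster 5, 5 in cluster 6 and 8 over all germ cells, and beyond these and *Mov10l1* in cluster 9 the block changed no other call. The shares of all genes called with the block are given above beside each of these counts. Leaving out each library in turn gave 0 to 1 in each of clusters 1 to 5, 1 to 2 in cluster 6, 3 to 4 in cluster 8, 3 to 6 over all germ cells (3 without *Meioc*-null replicate 1) and 4 to 6 in the step. The shares of all genes called in these fits were 0 to 4.42% in clusters 1 to 5, 16.2 to 20.8%, 43.2 to 53.2%, 6.33 to 13.5% and 53.3 to 56.4%. Without wild-type replicate 2 the call in clusters 1 to 4 was *Piwil1*. Placing cells within their batch, an alternative chosen after seeing the data, gave 0, 0, 0, 0, 0, 2, 3, 5 and 7 in clusters 1 to 9. The shares of all genes called with this placing were 0%, 0.0115%, 0.0256%, 0%, 1.24%, 22.6%, 49.4%, 56.5% and 62.9%. Cluster 8 gave 3 (*Mybl1*, *Asz1* and *Mov10l1*, against 53.5% of all genes) with called genes left out of the placing. The step test gave 3 (44.6%) with DESeq2. All germ cells gave 9 (47.5%) with a mitochondrial limit of 5% and 8 (24.5%) without far cells. The median level in Sertoli-like cells, relative to germ cells, went from 8.39 to 18.1% with no doublets removed. The cause of these shifts was not tested.

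In these comparisons signs turned without single libraries for *Mov10l1* in cluster 6 (-0.0074 to 0.12), *Mael* in cluster 7 (-0.0075 to 0.12), *Mybl1* in cluster 7 (-0.22 to 0.036), *Piwil2* in cluster 8 (-0.021 to 0.054), *Mael* in cluster 8 (-0.076 to 0.16), and in the step for *Piwil1* (-0.015 to 0.46) and *Asz1* (-0.32 to 0.076). Outside them signs also turned for members that were not called, in each of clusters 1 to 5 and for *Mybl1* in Sertoli-like cells (-0.28 to 0.091). Without far cells *Mybl1* in cluster 6 was 0.20, *Mael* -0.013 in cluster 7 and -0.23 in cluster 8. With called genes left out of the placing *Mybl1* in cluster 7 was 0.10 and *Mael* in cluster 8 -0.039. *Mael* in cluster 7 was -0.0098 with at least 8 clusters and -0.016 with listed genes allowed. With no doublets removed *Asz1* in cluster 9 was -0.026, and the steps of *Mov10l1* and *Ddx4* were -0.021 and -0.21, that of *Ddx4* being called. With cluster 8 in place of 9 the steps of *Piwil2*, *Mael*, *Tdrd9*, *Mov10l1* and *Ddx4* were -0.51, -0.070, -1.50, -0.78 and -0.0060.

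Not run, for lack of cells or of a cluster sharing at least 50% of cells, were the 5% limit in clusters 1, 2 and 4 to 9 and in the step, no doublet removal in clusters 2, 3, 7 and 8, at least 8 clusters, 15 neighbours and listed genes in cluster 8, and removal of far cells in cluster 9 and the step. Depth limits *Piwil4* after cluster 3 and *Piwil1* in *Meioc*-null cluster 9, at 1 to 2 UMIs a library.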
